A study of Mus musculus with 6 samples.

Results

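Gene expression in DP42, a mouse myeloma cell line, was compared between 24 h of co-culture with mouse neutrophils and 24 h of co-culture with mouse B cells, the control that the design names. The comparison covers 12011 of 22180 genes, namely those whose mean log2 signal was 7.2 or more in at least 1 of these 2 groups, and it concerns pathways other than the type I interferon response. A level of 7.2 lies near the median of the arrays (7.09 to 7.22). Of the 12011 genes, 11230 reached the level in both groups, 187 only with neutrophils and 594 only with B cells. A gene that reached it in 1 group alone had to differ to some extent, so its difference was partly set by the choice.

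Each of the 3 groups (neutrophil co-culture, B-cell co-culture and DP42 cells cultured alone) held 2 arrays of total RNA, all from the same cell line at the same 24 h. Co-cultured populations were separated by flow cytometry before lysis. The partner cells are labelled as neutrophils (IMC) in one place and as myeloid cells in another, IMC is not spelled out, and the strain and tissue of the partner cells and the purity of the sort are not given in the sources used here. The sources do not say whether the 2 arrays of each group were separate cultures; a p-value here therefore rests on a spread between arrays that may be technical. An exact permutation test of 2 arrays against 2 cannot go below p = 0.333 (two-sided), so a gene is called changed here only from limma's moderated test, fitted on all 22180 genes and all 6 arrays, at an adjusted p under 0.05.

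Myeloma cells are malignant plasma cells, which live by secreting protein and so depend on the endoplasmic reticulum, on lipid for its membranes and on steady protein turnover. Cholesterol is made through the mevalonate pathway, whose genes are switched on together by the transcription factor SREBP-2 when sterol in the endoplasmic reticulum runs low. In bone marrow, myeloma cells lie among neutrophils and their precursors, and they take up survival signals through cytokine, integrin and BAFF-family receptors. Values below are log2 expression, and a difference is the neutrophil mean minus the B-cell mean unless said otherwise. In bulk RNA, fewer cells of a type and less RNA per cell cannot be told apart.

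The arrays differed in a way that ran through most genes, and this sets how the pathways are read. Among the 12011 genes the median difference was 0.12 and 9163 (76.3%) were positive, while among the 10169 dimmer genes the median was -0.12 and 2301 (22.6%) were positive. Genes at a mean level from 9 to 10 had a median of 0.18 (2781 genes), and those under 6 had -0.16 (4326 genes). B-cell replicate 2 lay farther from the neutrophil arrays than replicate 1 did: at levels from 9 to 10 the median difference was 0.28 against replicate 2 and 0.080 against replicate 1. Against culture alone it was 0.15. Among the 12011 genes, B-cell replicate 1 exceeded replicate 2 by a median of 0.12, whereas the neutrophil replicates differed by a median of -0.019 and the replicates of culture alone by -0.0011. Over genes with a mean of 7.2 or more on all arrays, which are not independent replicates, B-cell replicate 1 correlated at 0.986 with B-cell replicate 2 and at 0.994 with neutrophil replicate 1.

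**Figure D1:**
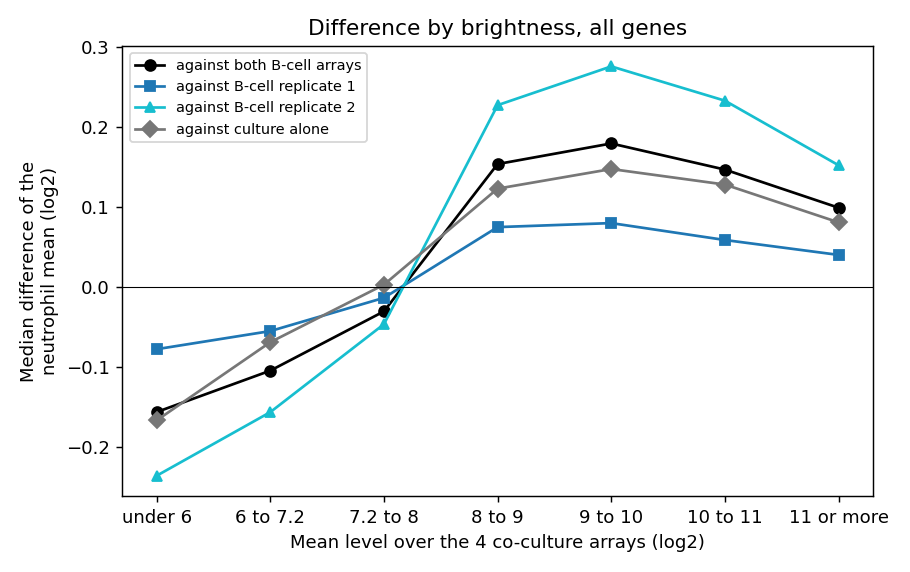
Median difference between the neutrophil mean and each comparator (log2, vertical axis) for all 22180 genes grouped by mean level over the 4 co-culture arrays (horizontal axis). Every median at levels under 7.2 lies below 0 and every median from 8 upwards above it, while from 7.2 to 8 the medians against B cells lie slightly below 0; the largest medians lie (0.28 at levels from 9 to 10) against B-cell replicate 2.

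Markers of other cells were read next, since the RNA came from sorted co-cultures. Ngp, a protein of neutrophil granules, stood at 7.27 and 7.70 with neutrophils, against 5.93 and 6.11 with B cells and 5.57 and 5.76 in culture alone. It rose by 1.46 ± 0.15 (SE, limma adjusted p = 0.022) and reached 7.2 only with neutrophils. Lcn2, a siderophore-binding protein of neutrophils, stood at 6.98 and 7.08 with B cells, against 7.55 and 7.61 with neutrophils. Its difference was 0.55 ± 0.11 (adjusted p = 0.125), short of the threshold, and the arrays did not overlap. The groups overlapped for S100a9, a subunit of calprotectin, at 7.25 and 7.62 with B cells against 7.47 and 7.56 with neutrophils. Of the 33 genes on the neutrophil marker list 31 were measured and 11 reached 7.2 in at least 1 of the groups, 3 of them in 1 group alone. Of the 11, 1 (Ngp) passed. Of the 31, 20 had a positive difference, so the markers named here do not stand for the whole list. At an unadjusted p under 0.05, 3 of the 11 were higher (27.3%, beside 13.7% of the 12011 genes) and 0 lower. Arrays did not overlap for 6 of the 11 that were higher (54.5%, beside 49.3% of the 12011 genes) and 1 that was lower. The array means of the 31 were 6.77 and 6.84 with neutrophils, 6.59 and 6.74 with B cells and 6.61 and 6.64 alone. This list was thus a little higher on both neutrophil arrays, where most lists below were also higher. Of the remaining arrays it was highest on B-cell replicate 2 (6.74), which had the lowest mean in all 27 pathway lists. Its part in the genes below was not tested. The mean of the monocyte and macrophage list lay between 7.15 and 7.27 with B cells and between 7.25 and 7.28 with neutrophils. That of the mature B cell list lay between 8.10 and 8.11 with B cells and was 8.09 on both neutrophil arrays. Of the T and NK cell markers 9 of 18 measured reached 7.2, of the mature B cell markers 9 of 13 and of the erythroid and platelet markers 3 of 9; none of these passed in limma's test, and 2 of the T and NK cell markers were lower at an unadjusted p under 0.05. Of the dendritic cell markers 3 of 9 reached 7.2, with a median of 0.36; 2 of the 3 were higher at that p, without passing. These were Bst2, which interferon also induces (0.79 ± 0.16, adjusted p = 0.126), and Cd209a (0.36 ± 0.10, adjusted p = 0.158), whose arrays of culture alone lay above both neutrophil arrays. Below 7.2, and so outside the 12011 genes, Ly6c2, a surface antigen of monocytes and of some lymphocytes that interferon induces, stood at 5.53 and 5.70 with B cells, against 7.14 and 7.12 with neutrophils (1.51 ± 0.10, adjusted p = 0.00346). Likewise outside, S100a8, the partner of S100a9, stood at 5.44 and 5.48 against 6.26 and 6.12 (0.73 ± 0.10, adjusted p = 0.072), and the granule genes Retnlg and Camp differed by 1.27 ± 0.23 and 0.67 ± 0.16. Lyz2, lysozyme of myeloid cells, stood at 6.89 and 7.0 against 7.21 and 7.2 (0.26 ± 0.10, adjusted p = 0.217) and reached 7.2 only with neutrophils. Groups overlapped for Cd3e of T cells, Ms4a1 of B cells and Csf1r of macrophages.

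In limma's test 7 of the 12011 genes changed, 6 higher (0.05% of them, against 0.0316% of all genes) and 1 lower (0.00833%, against 0.018% of all genes). The 6 were Ngp and 5 genes of the interferon list, Ifi27, Oas2, Usp18, Irf9 and Cmpk2. The olfactory receptor gene Olfr347 was the 1 that fell, at 7.44 and 7.52 with B cells, against 6.52 and 6.35 with neutrophils (-1.05 ± 0.10, adjusted p = 0.021). It reached 7.2 only with B cells. None of the 607 genes on 27 pathway lists passed, in either direction. At an unadjusted p under 0.05, 1644 genes were higher (13.7%, against 8.1% of all genes) and 613 lower (5.1%, against 12%). Arrays did not overlap for 5922 genes that were higher (49.3%, against 30.0% of all genes) and 1544 that were lower (12.9%, against 26.7%). A list counts as different below only against these shares. The 7 became 3130 without B-cell replicate 1 (2494 higher, 636 lower), 0 without B-cell replicate 2, neutrophil replicate 2 or either replicate of culture alone, and 0 when arrays were centred on the median of bright genes. With 0 calls, 917 genes had an unadjusted p under 0.05 without B-cell replicate 2, 746 without neutrophil replicate 2, 1465 without either array of culture alone and 1607 with that centring.

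Beyond interferon, cholesterol synthesis was the list that stood farthest above the general shift. All 19 measured genes (of 25 listed) reached 7.2 in both groups and all 19 were higher with neutrophils, with a median of 0.27 against 0.12 for the 12011 genes. At an unadjusted p under 0.05, 13 of 19 (68.4%, beside 13.7% of the 12011 genes) were higher and 0 lower. Arrays did not overlap for 17 of 19 (89.5%, beside 49.3%). Their array means were 9.51 and 9.56 with neutrophils, 9.28 and 9.17 with B cells and 9.30 and 9.32 alone, so both neutrophil arrays lay above the other 4. That order was common to most lists. Neutrophil means lay above both B-cell means in 26 of the 27 pathway lists, and above both means of culture alone in 26. Without B-cell replicate 2, whose mean was the lowest, the median was 0.21, beside 0.049 for the 12011 genes, and 19 of 19 were positive. Without B-cell replicate 1 the median was 0.37 and 11 passed in limma's test, when 20.8% of the 12011 genes were called higher. Centred on bright genes the median was 0.11 with 17 of 19 positive, beside a median of -0.042 for the 12011 genes.

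By step of the pathway, Hmgcs1, which makes HMG-CoA at its entry, stood at 9.72 and 9.44 with B cells, against 10.19 and 10.22 with neutrophils, beside 9.73 and 9.80 in cells cultured alone. Both neutrophil arrays were above all 4 others, by a difference of 0.63 ± 0.11 against B cells (1.54-fold, adjusted p = 0.117). Mvk and Mvd, a kinase and the decarboxylase of the mevalonate steps, differed by 0.17 ± 0.09 and 0.18 ± 0.10, and the kinase gene Pmvk by 0.056 ± 0.11 with overlapping arrays. Fdps, which makes farnesyl diphosphate, differed by 0.26 ± 0.10. Fdft1, the squalene synthase that commits farnesyl diphosphate to sterols, stood at 9.82 and 9.44 with B cells, against 10.17 and 10.21 with neutrophils (0.56 ± 0.13, adjusted p = 0.142). Cells cultured alone stood at 9.66 and 9.73, between the B-cell replicates, of which replicate 2 was the lowest of the 6 arrays.

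Among the enzymes that close and trim the sterol ring, Lss, lanosterol synthase, stood at 8.48 and 8.35 with B cells, against 8.80 and 8.77 with neutrophils. Its difference was 0.37 ± 0.10 (adjusted p = 0.152). Cyp51, lanosterol demethylase, stood at 9.25 and 8.95 against 9.60 and 9.60 (0.50 ± 0.12, adjusted p = 0.142). Msmo1, the sterol methyl oxidase, stood at 8.57 and 8.53 against 9.03 and 8.94 (0.44 ± 0.09, adjusted p = 0.132), with B-cell replicates that lay close together. Groups did not overlap in any of these 3, and both neutrophil arrays exceeded both arrays of culture alone. Tm7sf2, a sterol reductase, differed by 0.039 ± 0.11 with overlapping arrays. Hsd17b7, Sc5d, Sqle, Ebp, Dhcr7 and Nsdhl ranged from 0.19 to 0.31 without passing. Of the regulators, Insig1, which holds SREBP back in the endoplasmic reticulum and is itself a target of SREBP, stood at 10.89 and 10.73 against 11.15 and 11.39 (0.46 ± 0.11, adjusted p = 0.146). Srebf2, the gene of SREBP-2 itself, stood at 11.17 and 11.13 against 11.29 and 11.40 (0.19 ± 0.09, adjusted p = 0.279). The intracellular sterol carrier Stard4 stood at 9.03 and 8.80 against 9.40 and 9.47 (0.52 ± 0.11, adjusted p = 0.125).

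**Figure D2:**
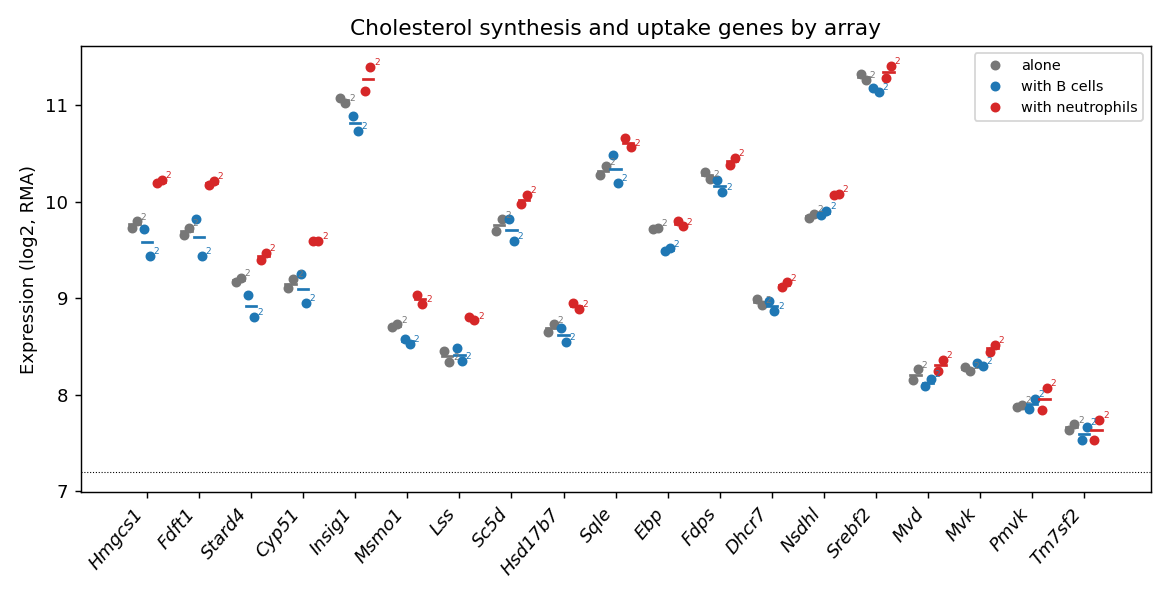
Log2 expression (vertical axis) of the 19 measured cholesterol genes in each of the 6 arrays, ordered by difference; points are arrays (replicate 2 marked), short lines are group means and the dotted line is the level of 7.2. Levels of different genes are not comparable, and within a gene both neutrophil points lie above both B-cell points in 17 of 19.

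Since these genes share regulation, the promoters of the 4 with the largest differences among those with a sequence in the RefSeq table (GRCm38.p6) are shown. A window runs from 250 bases before the gene's start to 50 bases after it, on the gene's strand: Hmgcs1 at chr13:119690101-119690400 (+), Cyp51 at chr5:4104648-4104947 (-), Insig1 at chr5:28071162-28071461 (+) and Msmo1 at chr8:64733529-64733828 (-). Capitals mark CCAAT, the box bound by NF-Y, and TCACNNCA, the core of the sterol response element, each on either strand, and in Msmo1 a CCAAT and a TCACNNCA overlap.
Hmgcs1: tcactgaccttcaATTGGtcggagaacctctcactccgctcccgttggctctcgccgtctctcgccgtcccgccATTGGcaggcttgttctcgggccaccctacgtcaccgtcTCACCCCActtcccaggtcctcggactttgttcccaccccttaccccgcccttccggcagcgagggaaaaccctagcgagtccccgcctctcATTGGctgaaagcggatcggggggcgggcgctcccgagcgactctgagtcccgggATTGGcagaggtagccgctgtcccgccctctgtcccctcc
Cyp51: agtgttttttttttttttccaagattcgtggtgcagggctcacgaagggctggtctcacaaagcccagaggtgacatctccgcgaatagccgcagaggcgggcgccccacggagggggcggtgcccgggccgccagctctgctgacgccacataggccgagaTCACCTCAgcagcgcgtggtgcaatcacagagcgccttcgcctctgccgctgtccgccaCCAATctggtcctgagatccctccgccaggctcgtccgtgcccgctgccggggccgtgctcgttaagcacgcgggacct
Insig1: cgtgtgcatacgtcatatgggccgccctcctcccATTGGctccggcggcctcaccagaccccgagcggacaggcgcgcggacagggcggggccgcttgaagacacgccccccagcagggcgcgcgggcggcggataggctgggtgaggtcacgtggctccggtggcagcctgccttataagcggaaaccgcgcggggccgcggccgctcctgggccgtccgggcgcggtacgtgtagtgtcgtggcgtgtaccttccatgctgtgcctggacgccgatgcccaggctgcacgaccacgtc
Msmo1: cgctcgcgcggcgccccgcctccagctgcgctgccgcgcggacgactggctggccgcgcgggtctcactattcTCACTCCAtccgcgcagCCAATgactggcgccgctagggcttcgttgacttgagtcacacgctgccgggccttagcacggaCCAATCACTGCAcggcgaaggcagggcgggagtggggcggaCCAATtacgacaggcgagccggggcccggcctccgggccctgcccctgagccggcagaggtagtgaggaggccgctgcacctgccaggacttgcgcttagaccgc
Of the 19 genes 15 had a promoter in the table. CCAAT was found in 15 of 15 (41.1% of all 27025 genes in the table hold it) and TCACNNCA in 9 of 15 (15.7% of all genes), the latter in Hmgcs1, Pmvk, Cyp51, Msmo1, Nsdhl, Hsd17b7, Sc5d, Dhcr7 and Srebf2. The longer TCACNCCA was in 3 (4.97% of all genes) and TCACNCCAC, closest to the classical element, in Hmgcs1 alone (1.44% of all genes). The E-box CACGTG, which SREBP also binds, was in 4 (8.09% of all genes). A match describes letters only: Insig1, with no TCACNNCA in this window, differed by 0.46, and Pmvk, with one, by 0.056.

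Fatty acid synthesis genes, which the related factor SREBP-1 drives, stood next. Of 13 members (16 of 18 measured) 12 were positive with a median of 0.23, 4 (30.8%) were higher at an unadjusted p under 0.05, and 11 (84.6%) had arrays that did not overlap. Acaca, acetyl-CoA carboxylase, stood at 9.84 and 9.84 with B cells, against 10.09 and 10.16 with neutrophils (0.28 ± 0.09, adjusted p = 0.187). The fatty acid elongase Elovl6 differed by 0.31 ± 0.10 and Acsl4, which activates polyunsaturated fatty acids, by 0.34 ± 0.12. Without B-cell replicate 2 the list's median was 0.12, beside 0.049 for the 12011 genes. Centred on bright genes the list's median was 0.063 with 9 of 13 positive, beside -0.042 for the 12011 genes.

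Immediate early genes, which answer growth factor and stress signals within an hour or so, had a median of 0.22 over 26 members, with 7 (26.9%) higher at an unadjusted p under 0.05. Spred2, an inhibitor of RAS signalling, stood at 8.89 and 8.67 with B cells, against 9.11 and 9.15 with neutrophils (0.35 ± 0.10, adjusted p = 0.174). Dusp6, a phosphatase of ERK, differed by 0.38 ± 0.14. Ier2, which reached 7.2 only with neutrophils, differed by 0.46 ± 0.18, with a B-cell replicate 2 at 6.61 below the other 5 arrays. Without that replicate the list's median was 0.097, beside 0.049 for the 12011 genes. In the STAT3 and cytokine list 4 of 20 members (20%) were higher at an unadjusted p under 0.05. Its median was 0.17, against 0.057 without B-cell replicate 2. Socs1, which shuts off JAK kinases and is itself induced by interferons, stood at 8.07 and 7.78 against 8.40 and 8.39 (0.47 ± 0.12, adjusted p = 0.147), and the IL-4 receptor gene Il4ra differed by 0.30 ± 0.11. In the NF-kB list 4 of 22 were higher (18.2%) and 2 lower, with a median of 0.14, against 0.092 without B-cell replicate 2. Among them Nfkbid, an inhibitor family member, differed by 0.31 ± 0.11 and the chemokine gene Ccl5 by -0.33 ± 0.12, the latter reaching 7.2 only with B cells.

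Antigen presentation and nucleic acid sensing genes, some of which interferon also induces, were higher by medians of 0.19 and 0.17. For MHC class I and peptide loading 3 of 16 (18.8%) were higher at an unadjusted p under 0.05 and 12 (75%) did not overlap. H2-T23, a class I gene of the Qa-1 type, stood at 8.54 and 8.03 with B cells, against 8.86 and 8.85 with neutrophils (0.57 ± 0.15, adjusted p = 0.154), and the immunoproteasome subunit gene Psmb9 differed by 0.32 ± 0.10. MHC class II had 1 of 11 (9.09%) and a median of 0.14, with H2-Aa at 0.22 ± 0.09. Among sensors, Adar, an RNA editing enzyme, stood at 8.99 and 8.94 against 9.24 and 9.44 (0.38 ± 0.10, adjusted p = 0.154). Tbk1, the kinase below cGAS and STING, stood at 9.91 and 9.77 against 10.12 and 10.14 (0.29 ± 0.09, adjusted p = 0.191), and Sting1 differed by 0.28 ± 0.10. In Adar and Tbk1 the neutrophil arrays exceeded both B-cell arrays and both arrays of culture alone.

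Growth lists lay close to the shift of all 12011 genes in size, with no member past the threshold. DNA replication had a median of 0.14 with 33 of 33 positive and 5 (15.2%) higher at an unadjusted p under 0.05. Arrays did not overlap for 26 (78.8%, beside 49.3% of the 12011 genes). Both neutrophil arrays exceeded the other 4 in 78.8% of this list, beside 40.1% of the 12011 genes and 78.9% of the cholesterol list. Gins2, of the replicative helicase, stood at 9.77 and 9.54 with B cells, against 9.96 and 10.02 with neutrophils (0.33 ± 0.11, adjusted p = 0.186). Mitosis had 4 of 34 (11.8%) and a median of 0.12, with the spindle midzone gene Prc1 at 0.28 ± 0.11 and the checkpoint kinase gene Ttk at 0.28 ± 0.11. MYC targets and ribosome synthesis had 5 of 29 (17.2%) and a median of 0.15, led by Tcof1, a factor of rRNA transcription, at 0.29 ± 0.11. Cytosolic ribosomal proteins had 5 of 34 (14.7%) and a median of 0.10. For these 34, cells cultured alone lay nearer to the neutrophil mean in 23 and nearer to the B-cell mean in 11, the array means being 10.72 and 10.74 with neutrophils, 10.64 and 10.53 with B cells and 10.72 and 10.71 alone. Among all 12011 genes culture alone lay nearer to the neutrophil mean in 28.6%, against 12.1% in DNA replication, 8.82% in mitosis and 44.8% in MYC targets.

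Energy and stress lists showed single genes above their list. In oxidative phosphorylation 7 of 35 (20%) were higher at an unadjusted p under 0.05 with a median of 0.15. Atp5e, the epsilon subunit of ATP synthase, stood at 9.12 and 8.95 with B cells, against 9.61 and 9.62 with neutrophils (0.58 ± 0.10, adjusted p = 0.116), and cells cultured alone, at 9.42 and 9.53, lay nearer to the neutrophil arrays. In glycolysis and hypoxia 4 of 25 (16.0%) were higher, with a median of 0.15 and Hk2, a hexokinase, at 0.39 ± 0.12. Heat shock had 1 of 14 (7.14%), Hspa1b, at 10.54 and 10.28 against 10.84 and 10.76 (0.39 ± 0.11, adjusted p = 0.164). The p53 targets had 3 of 19 (15.8%) with a median of 0.15. Plk3, a stress-induced kinase, stood at 7.79 and 7.46 against 8.10 and 8.15 (0.50 ± 0.12, adjusted p = 0.146), above both arrays of culture alone at 7.77 and 7.67. NRF2 and redox genes had 1 of 18 (5.56%) and a median of 0.12, with the pentose phosphate enzyme gene Pgd at 0.21 ± 0.09.

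The secretory apparatus of these plasma cell-like cells was not set apart. In the unfolded protein response 2 of 28 (7.14%) were higher at an unadjusted p under 0.05, below the 13.7% of the 12011 genes, with a median of 0.14. Dnajb9, a co-chaperone that IRE1 and XBP1 induce, stood at 10.13 and 9.84 with B cells, against 10.43 and 10.46 with neutrophils (0.46 ± 0.11, adjusted p = 0.144). Cells cultured alone stood at 9.99 and 9.99, and the list without B-cell replicate 2 had a median of 0.028. The ATF4 list had 3 of 22 (13.6%) and a median of 0.091, with the serine synthesis gene Psph at 0.24 ± 0.09. The tRNA synthetases had 1 of 18 (5.56%, median 0.16), the proteasome 3 of 29 (10.3%, median 0.14), autophagy and lysosome 3 of 27 (11.1%, median 0.13) and splicing factors 1 of 29 (3.45%, median 0.12). Of these, Psma7, a proteasome core subunit, differed by 0.28 ± 0.09, and Npc1, which exports cholesterol from lysosomes, stood at 8.76 and 8.57 against 9.05 and 8.94 (0.34 ± 0.11, adjusted p = 0.184).

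Regulators of plasma cells and the B lineage had 3 of 21 (14.3%) higher at an unadjusted p under 0.05 and 66.7% not overlapping, with a median of 0.12, Id3, an inhibitor of E proteins, at 0.33 ± 0.11 and the BAFF receptor gene Tnfrsf13c at 0.28 ± 0.12. The B-cell receptor list had 2 of 17 (11.8%), 70.6% not overlapping and a median of 0.12. Bcl10, an adaptor from that receptor to NF-kB, stood at 9.27 and 8.92 with B cells, against 9.55 and 9.46 with neutrophils (0.41 ± 0.13, adjusted p = 0.180), and cells cultured alone, at 9.45 and 9.31, lay between the groups. The BCL2 family had 1 of 13 (7.69%), 23.1% not overlapping against 49.3% of the 12011 genes, and the lowest median of the 27 lists, 0.086, led by Bbc3, which encodes the death factor PUMA, at 0.32 ± 0.11. Adhesion and homing had 2 of 24 (8.33%), 62.5% not overlapping and a median of 0.13, with the beta 1 integrin gene Itgb1 at 0.33 ± 0.12 and Icam1 at 0.27 ± 0.12. In all 27 lists B-cell replicate 2 had the lowest mean of the 6 arrays. Centred on bright genes, 6 of the 27 medians stayed positive, those of cholesterol, fatty acids, immediate early genes, MHC class I, STAT3 and cytokine signalling, and nucleic acid sensing. This centring lowers every gene's difference by the same amount, so the 6 are only the lists with the highest medians. The median of the 12011 genes became -0.042. Each array's mean over the receptor genes described below was also used as a covariate. It was 5.13 and 5.05 with neutrophils, 5.27 and 5.59 with B cells and 5.56 and 5.51 alone. The covariate thus differed between the groups compared, so part of any drop under it was built in. With it, 7 of the 27 medians stayed positive. Cholesterol genes higher at an unadjusted p under 0.05 numbered 2 of 19 in place of 13, when 1.37% of the 12011 genes were.

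**Figure D3:**
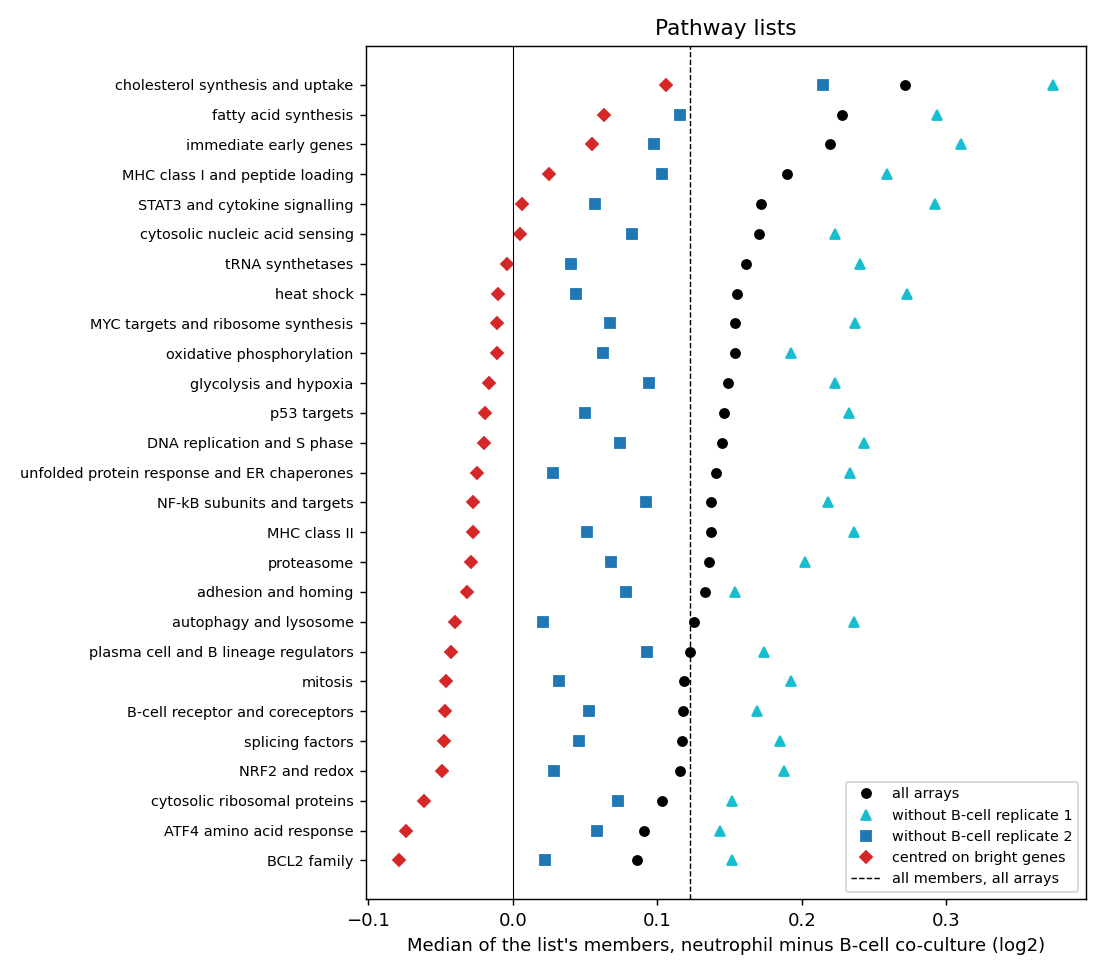
Median difference (log2, horizontal axis) of the members of each of 27 pathway lists, with all arrays, without each B-cell replicate, and after centring arrays on bright genes; the dashed line is the median of all 12011 genes (0.12). Medians with all arrays run from 0.086 (BCL2 family) to 0.27 (cholesterol), and leaving out B-cell replicate 2 lowers every list.

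Outside the interferon list and small RNAs, the genes highest with neutrophils after Ngp reached no call. Helz2, a helicase co-activator that is interferon-inducible although not on the list, stood at 8.70 and 8.55 with B cells, against 9.30 and 9.24 with neutrophils (0.65 ± 0.10, adjusted p = 0.098). Tmem126a, a mitochondrial membrane protein, stood at 8.5 and 8.05 against 8.92 and 9.0 (0.68 ± 0.14, adjusted p = 0.132). In both genes the neutrophil arrays exceeded the other 4. Cd69, an early activation antigen of lymphocytes, stood at 8.66 and 8.40 against 9.19 and 9.05 (0.59 ± 0.11, adjusted p = 0.123), with 8.87 and 8.86 in cells cultured alone. Ly6d, a surface antigen of B-lineage precursors, stood at 10.19 and 10.20 against 10.85 and 10.72 (0.59 ± 0.10, adjusted p = 0.115). Culture alone, at 10.60 and 10.77, put the B-cell arrays of Ly6d below all 4 others. The histone gene H4c17 showed the same order, at 8.08 and 8.12 with B cells, 8.60 and 8.85 with neutrophils and 8.68 and 8.45 alone (0.62 ± 0.12, adjusted p = 0.123).

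Of the 1644 higher genes, all of which had non-overlapping arrays, both neutrophil arrays exceeded the other 4 in 1474 and both B-cell arrays lay below the other 4 in 554, and a gene may count under both. Clustered histone genes, grouped after their values were seen, were lower on both B-cell arrays than on the other 4. Of 19 members 10 were higher at an unadjusted p under 0.05, beside 13.7% of the 12011 genes. The array means were 9.61 and 9.57 with B cells, 9.84 and 9.80 alone and 9.87 and 9.92 with neutrophils. H4c1, at 0.69 ± 0.15, and the ribosomal protein genes Rps15 (0.74 ± 0.17) and Rps13 (0.69 ± 0.19) reached 7.2 only with neutrophils. So did the zinc finger genes Zfp97 (0.87 ± 0.26) and Zfp951 (0.64 ± 0.22), in which B-cell replicate 2 lay at 6.41 and 6.78 and replicate 1 at 7.27 and 7.57. Histone, ribosomal protein and zinc finger genes have near-identical copies, so the copy behind a signal is uncertain.

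**Figure D4:**
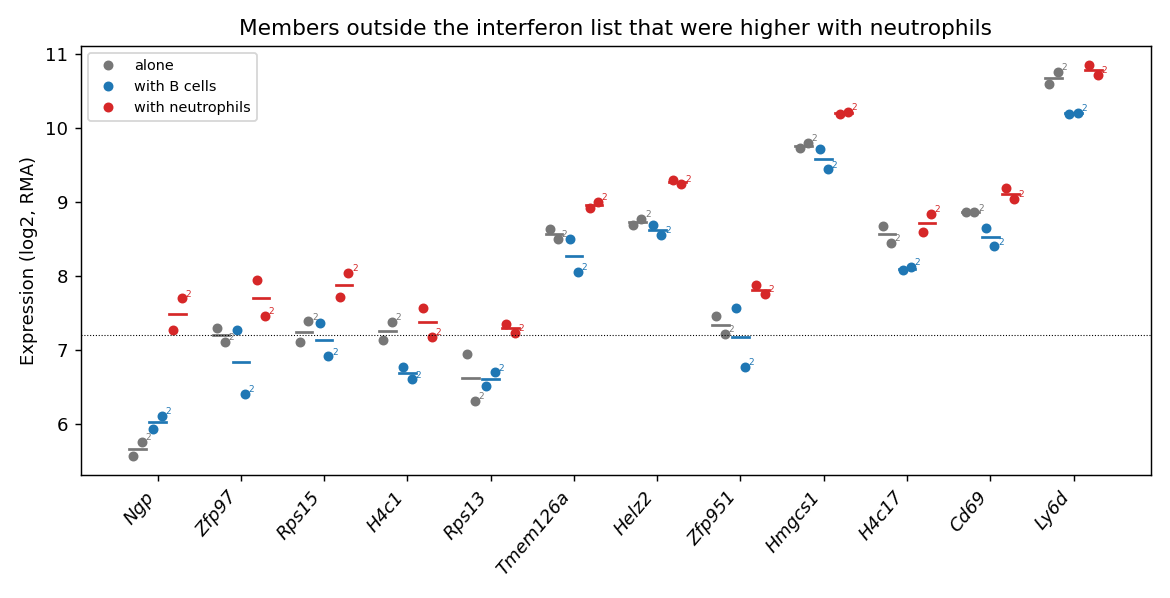
Log2 expression (vertical axis) in each of the 6 arrays for the 12 named genes higher with neutrophils; points are arrays (replicate 2 marked), short lines are group means and the dotted line is the level of 7.2. Levels of different genes are not comparable; only Ngp passed, and in Ly6d and H4c17 the B-cell points lie below culture alone as well as below neutrophils.

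The genes that stood lower with neutrophils were dimmer and rarely on a pathway list. Of 611 without overlap whose unadjusted p was under 0.05, 2 were on any pathway list. Among all 12011 genes 607 were, and among the 1644 higher genes 93 were, close to that general share. The median level of the 611 was 7.49, against 8.95 for the higher genes. Whether their lower level accounts for their absence from the lists was not tested. Both neutrophil arrays lay below the other 4 in 522 of the 611 (85.4%, beside 7.84% of the 12011 genes), a share raised by the choice of genes without overlap. Of 2785 predicted genes (Gm or Rik symbols) measured, 523 (18.8%, against 12% of all genes) were lower and 104 higher at that p. Predicted genes, receptors, immunoglobulin and T cell receptor segments and small RNAs were left out when genes were named. The 12 named genes with the largest difference, none of which passed, were mostly multicopy genes of the germ line. They were Srsy, Srsx and Astx5 on the sex chromosomes, Speer4c, Speer4cos and Speer8-ps1 of a family expressed in spermatids, Btbd35f1, Pramel34 and Trim43c, with 3 others given below. Srsy stood at 7.36 and 6.26 with neutrophils, 9.09 and 10.63 with B cells and 10.35 and 10.26 alone (-3.05 ± 0.47, adjusted p = 0.099). Speer4cos stood at 7.73 and 7.31 with neutrophils, 8.82 and 10.21 with B cells and 10.20 and 10.06 alone (-1.99 ± 0.36, adjusted p = 0.118). In both, B-cell replicate 1 lay between replicate 2 and the neutrophil arrays.

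The remaining genes of this kind followed the same order. Differences were -2.72 for Astx5, -2.07 for Speer8-ps1, -1.95 for Speer4c, -1.85 for Btbd35f1, -1.80 for Srsx, -1.55 for Pramel34 and -1.38 for Trim43c. The antisense RNA Pla2g10os differed by -2.09, the pseudogene Lamtor3-ps by -1.36 and the secretoglobin gene Scgb2b7 by -1.35. Srsy, Astx5, Srsx, Speer8-ps1, Pramel34, Pla2g10os, Lamtor3-ps and Scgb2b7 reached 7.2 only with B cells. Of 1394 olfactory and vomeronasal receptors measured, genes of sensory neurons, 614 (44.0%, against 12% of all genes) were lower and 6 higher at an unadjusted p under 0.05, with a median of -0.30. Only 128 of them reached 7.2, 58 of these with B cells alone, so a count over the 128 is tilted towards lower values. The means of the 128 were 7.47 and 7.34 with neutrophils, 7.72 and 8.13 with B cells and 8.0 and 7.99 alone. Of 15 Speer genes measured 11 (73.3%, against 12% of all genes) were lower at that p and 0 higher, with a median of -0.72. These families have near-identical copies, so a probe set may read several genes, and what moved them was not tested.

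**Figure D5:**
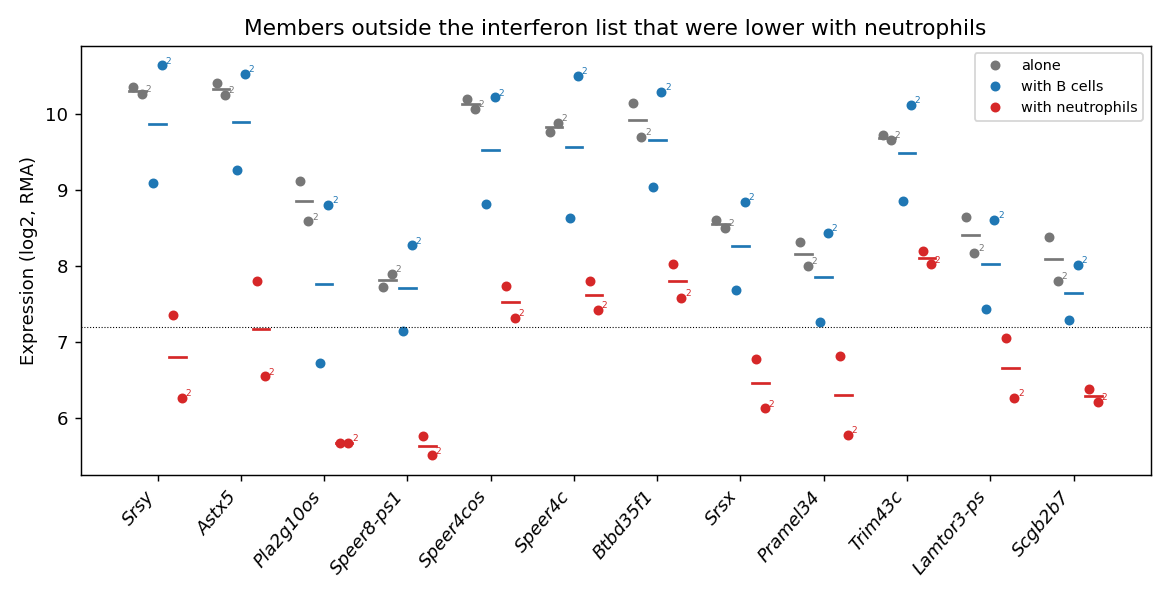
Log2 expression (vertical axis) in each of the 6 arrays for the 12 named genes lower with neutrophils; points are arrays (replicate 2 marked), short lines are group means and the dotted line is the level of 7.2. Levels of different genes are not comparable; in each gene B-cell replicate 1 lies between B-cell replicate 2 and the neutrophil arrays, and none passed.

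At the edge of the chosen level, the genes just inside were Crybg2, with a difference of 0.014, E130304I02Rik, with -0.17, and Aanat, with -0.10. Just outside were Usp17le at -0.10, Gm1968 at -0.076 and Stab1 at 0.094.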

How the data were processed

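The authors deposited log2 expression values per probe set, made with RMA per the submitters' processing notes; no version is named in those notes, and the log2 scale was taken from the values (3.04 to 14.03). RMA puts arrays on a common distribution, which hides a change shared by most genes, and it compresses dim signals. The platform annotation gave exactly 1 gene for 23521 of 41345 probe sets, several for 1814 and none here for 16010. The brightest probe set over the 6 arrays was kept for each of 22180 genes (symbols from the GRCm38.p6 gene table through 23328 matched identifiers). A model of the 3 group means was fitted in R 4.3.3 by limma 3.58.1 (3 residual degrees of freedom, prior 5.55), and its two-sided p-values were adjusted by Benjamini-Hochberg across the 22180 genes; simulated data tested the fit. Groups came from the labels. The number of arrays limits precision.

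The members, the lists (904 symbols, 810 measured) and the tests were chosen with earlier results of these data known, so no list is independent evidence. Genes were named by rule: outside the interferon list, predicted genes, receptors, immunoglobulin and T cell receptor segments and small RNAs, up to 12 per direction by difference (called, then unadjusted p under 0.05 without overlap), 3 members per list, called interferon genes, 3 genes either side of 7.2 and fixed cell markers; not all of these are described. Remaining cholesterol genes, Bst2, Cd209a, histones, receptors, Speer genes and the predicted genes as a group were named after their values were seen. Same-numbered arrays did not deviate together (correlations -0.0742, 0.0651 and -0.151). Plots used matplotlib 3.10.9 in Python 3.11.15.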

Additional observations from a re-analysis of the deposited data

How the results depend on the processing

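Counts below are genes called by limma in all 22180 genes and in the 12011 genes at 7.2 or more, against 11 and 7 as reported. They became 63 and 63 when only genes with a mean of 7.2 or more were fitted, 33 and 18 with eBayes trend and robust settings, 7 and 4 with quantile normalisation, 135 and 70 with arrays centred on their medians (45 higher and 90 lower, and 34 and 36), 1 and 0 with only the 4 co-culture arrays, and 30 and 14 at an adjusted p under 0.10. Both were 0 with centring on bright genes (5699 and 1607 at an unadjusted p under 0.05) and with each array's mean over 1394 receptor genes (olfactory, vomeronasal) as a covariate (777 and 273). Centring on array medians moved the median of all genes from 0.011 to 0.098, centring on bright genes to -0.15, and the median of the 12011 genes became 0.21 and -0.042. Leaving out 1 array gave 1 to 5453 and 0 to 3130, the highest without B-cell replicate 1, whose group is then 1 array assumed to vary like the others. The replicate number as a block gave 9 and 5 calls. Arrays share only a number, so this is no pairing; crossing the B-cell numbers, chosen after seeing the data, gave 299 and 105. Averaging probe sets, and levels of 7.0 or 8.0, left the count of 7 within 1.5 times (7, 8 and 5). Of 99 genes described under the naming rule or the cholesterol list, 19 changed sign under some alternative, none of them called. With the receptor covariate 13 did: Zfp951 to -0.080, Pla2g10os to 0.073, Lamtor3-ps to 0.082, Tcof1 to -0.0024, Ier2 to -0.17, Dusp6 to -0.034, Tnfrsf13c to -0.080, Crybg2 to -0.041, Aanat to 0.082, Usp17le to 0.0001, Gm1968 to 0.034, Ms4a1 to 0.19 and Sqle to -0.0018. With centring on bright genes 7 did: Crybg2 to -0.15, Stab1 to -0.070, S100a9 to -0.085, Cd3e to -0.12, Csf1r to -0.097, Pmvk to -0.11 and Tm7sf2 to -0.13. Gm1968 became 0.0069 with quantile normalisation and 0.011 with centring on array medians. Leaving out 1 array in turn also turned some: S100a9 ran from -0.11 (without B-cell replicate 1) to 0.27, Tm7sf2 from -0.062 (without neutrophil replicate 2; -0.029 without B-cell replicate 1) to 0.14, Crybg2 from -0.077 (without neutrophil replicate 2; -0.0030 without B-cell replicate 2) to 0.10, Aanat from -0.22 to 0.012 (without B-cell replicate 2), Usp17le from -0.22 to 0.014 (without neutrophil replicate 1), Csf1r from -0.074 (without neutrophil replicate 2) to 0.21, and Pmvk from -0.057 (without neutrophil replicate 2) to 0.17. With the receptor covariate 20 of 27 list medians turned negative, among them immediate early genes (-0.043), STAT3 and cytokine signalling (-0.042), DNA replication (-0.030) and the unfolded protein response (-0.089), while cholesterol stayed at 0.16. The cholesterol median was 0.17 with quantile normalisation. The receptor covariate was lower on both neutrophil arrays than on every other array. It therefore carries part of the comparison, and smaller or turned differences under it were partly built in. The causes were not tested.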
